A study of Mus musculus with 36 samples.

Results

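The splicing factors described here are the SR proteins, encoded by genes whose symbols begin with Srsf and a number, and the heterogeneous nuclear ribonucleoproteins (hnRNPs), encoded by genes whose symbols begin with Hnrnp. Symbols that mark pseudogenes were left out. This gave 30 genes, 10 of SR proteins and 20 of hnRNPs, out of 16060 genes measured in the series, and 175 of their transcripts out of 38061. All 30 genes were measured in each gene table, and of the 31 genes annotated under such symbols only Srsf12 was not listed. The transcript tables held 151 to 158 of the transcripts in liver and 164 to 172 in fat.

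After 16 weeks on a diet, liver and inguinal white adipose tissue (iWAT, fat under the skin of the groin) of C57BL/6J mice were taken for sequencing of total RNA. Calorie-restricted mice (CR) and time-restricted mice without calorie restriction (TR) were set against mice fed ad libitum (AL), and all mice were of this one wild-type strain. The 36 libraries, 6 for each diet in each tissue, came from 20 mice. Sampling times, sex and age were not given in the sources used here. A diet and the hours since feeding cannot be told apart in their effects. The values are the authors' comparisons of pairs of groups, 1 per table, with a log2 fold change, a log2 mean CPM (reads scaled to library size), a likelihood-ratio statistic, a p-value and an adjusted p from edgeR. Values per library and depths are unknown, so the group means in CPM below are approximate values taken from the deposited mean and fold change, with no spread of their own. Each table gives its own AL level, and where a pair of AL values is printed the CR table's comes before the TR table's. Those pairs lay within 0.807% of each other for the liver genes and within 1.78% for the iWAT genes. The words rose and fell are kept for genes and transcripts with an adjusted p under 0.05, per the authors' deposited table. The standard error (SE) beside a log2 fold change was approximated from the deposited statistic, and its median over all genes of a table lay between 0.142 and 0.153 in liver and between 0.318 and 0.366 in iWAT.

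SR proteins and hnRNPs bind nascent RNA and steer the choice of exons. As a rule SR proteins bind exonic enhancers through RNA recognition motifs and recruit the spliceosome with an arginine- and serine-rich tail, whereas many hnRNPs bind silencers and oppose inclusion, although both can do either depending on where they bind. Many of these genes control their own amount by splicing into transcripts with a premature stop or a kept intron, which are not translated into the full protein. Their transcripts are therefore a readout of their own, beside the level of the gene.

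The deposited transcript tables separate forms of the same gene by exons that keep the reading frame, and 3 such exons are shown because the results on Hnrnpa2b1 and Hnrnpk refer to them. The capitals mark the exon and the lower-case letters the 6 bases of the neighbouring exons on each side in the spliced transcript, read 5′ to 3′ on the coding strand from the GENCODE M21 transcripts of GRCm38. The long cassette exon of Hnrnpa2b1 lies at chr6:51464428-51464547 on the minus strand, is exon 8 of 11 in transcript Hnrnpa2b1-204, and has 120 bases, or 40 codons, of the glycine-rich domain.
Hnrnpa2b1 long cassette exon: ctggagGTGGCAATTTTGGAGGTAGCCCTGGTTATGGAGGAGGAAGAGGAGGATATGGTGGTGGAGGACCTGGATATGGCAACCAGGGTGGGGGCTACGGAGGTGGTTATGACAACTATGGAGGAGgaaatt
The short exon that tells hnRNP B1 from hnRNP A2 lies at chr6:51467391-51467426 on the minus strand, is exon 2 of 12 in Hnrnpa2b1-203, and has 36 bases, or 12 codons.
Hnrnpa2b1 B1 exon: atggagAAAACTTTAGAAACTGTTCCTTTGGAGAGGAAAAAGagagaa
The exon of Hnrnpk that Hnrnpk-216 lacks lies at chr13:58396188-58396259 on the minus strand, is exon 7 of 16 in Hnrnpk-201, and has 72 bases, or 24 codons.
Hnrnpk cassette exon: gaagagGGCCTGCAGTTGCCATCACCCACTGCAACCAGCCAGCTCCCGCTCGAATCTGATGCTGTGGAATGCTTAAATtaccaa
Where the long Hnrnpa2b1 exon is skipped, as in Hnrnpa2b1-201, the junction reads as below, with capitals from the first base of the following exon.
Hnrnpa2b1 skipping junction: gaggaggacctggagGAAATTATGGAAGTG

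Levels are compared between genes per kilobase of transcript. In AL liver Hnrnpa2b1 was highest, at 220 CPM per kilobase, followed by Hnrnpa3 at 147, Hnrnpf at 138, Hnrnpk at 132 and Srsf5 at 116 CPM per kilobase. The lowest in AL liver was Hnrnpa0, at 6.21 CPM per kilobase. In AL iWAT the order began with Hnrnpa2b1 at 324, Hnrnpk at 249 and Srsf5 at 211 CPM per kilobase and ended with Hnrnpll at 11.0 CPM per kilobase. With no spread per group, which neighbours in these orders differ was not tested.

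In the liver most SR genes lay close to AL, and the gene for SRSF7 was the member of the family that rose. None of the 10 SR genes was past the threshold in CR by the authors' edgeR likelihood-ratio test, 1 had an unadjusted p under 0.05, and their log2 fold changes ran between -0.02 and 0.22, per the authors' deposited table. In TR 1 of 10 rose. Srsf7, an SR protein with a zinc knuckle that also takes part in RNA export (ENSMUSG00000024097, GRCm38 chromosome 17, bases 80200080 to 80207307), stood at 27.5 CPM in CR and 33.3 CPM in TR livers, against 24.5 and 24.6 CPM in AL livers. Its log2 fold change was 0.17 in CR (SE 0.15, adjusted p = 0.554) and 0.43 in TR (SE 0.14, adjusted p = 0.0159), per the authors' deposited tables. Above 0 stood 8 of the 10 SR genes in CR and 7 in TR. Among genes called in no table, the largest log2 fold changes over the 3 liver comparisons, CR against TR included, belonged to Srsf4, Srsf3 and Srsf6. Srsf4, one of the longest SR proteins, stood at 17.6 CPM in CR and 21.5 CPM in TR, against 17.7 and 17.9 CPM in AL, a log2 fold change of -0.01 and 0.26, per the authors' deposited tables. Srsf3, the smallest SR protein, stood at 110 CPM in CR and 109 CPM in TR, against 94.2 and 94.8 CPM in AL (adjusted p = 0.178 and 0.175, per the authors' deposited tables). Srsf6 had 0.13 in CR and -0.07 in TR, each against AL, and 0.20 in CR relative to TR, per the authors' deposited tables.

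Among the hnRNP genes of the liver, Hnrnpc rose on both diets and 6 others fell in TR. Over both families 1 of 30 genes was called in CR, where 11.2% of all genes were, and 8 of 30 in TR, where 18.9% of all genes were. Of the 8 in TR, 2 were higher, against 9.35% of all genes, and 6 lower, against 9.54% of all genes. At an unadjusted p under 0.05 the count was 5 in CR, 2 higher and 3 lower, and the same 8 in TR. Those are 16.7% and 26.7% of the members, beside 22.8% and 30.8% of all genes. Hnrnpc (ENSMUSG00000060373, chromosome 14, bases 52073377 to 52104028) encodes the protein that binds uridine tracts of introns and covers cryptic exons there. It stood at 108 CPM in CR and 110 CPM in TR livers, against 80.9 and 81.3 CPM in AL livers. Its log2 fold change was 0.42 in CR (SE 0.11, adjusted p = 0.00267) and 0.44 in TR (SE 0.10, adjusted p = 0.000409), per the authors' deposited tables. Both CR and TR means thus lay above AL by a similar amount.

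Hnrnpa1, the best-known binder of splicing silencers (ENSMUSG00000046434, chromosome 15, bases 103240432 to 103246692), stood at 65.9 CPM in CR and 57.7 CPM in TR livers, against 79.1 and 79.6 CPM in AL livers. Its log2 fold change was -0.26 in CR (SE 0.10, adjusted p = 0.0589) and -0.46 in TR (SE 0.10, adjusted p = 6.43e-05), per the authors' deposited tables. The related Hnrnpa3 stood at 296 CPM in CR and 256 CPM in TR, against 325 and 327 CPM in AL, and fell in TR by 0.35 on the log2 scale (adjusted p = 0.0241), per the authors' deposited table. These and the 4 genes that follow lay lower in TR than in AL, with the CR mean between them, but none passed the threshold in CR. Hnrnpk, whose KH domains bind cytosine-rich RNA and DNA, stood at 194 CPM in CR and 174 CPM in TR, against 219 and 220 CPM in AL (TR log2 fold change -0.34, adjusted p = 0.0177, per the authors' deposited table). Hnrnpl, which binds CA-rich RNA, stood at 55.1 CPM in CR and 47.3 CPM in TR, against 59.7 and 60.1 CPM in AL (TR log2 fold change -0.35, adjusted p = 0.0118, per the authors' deposited table). Hnrnpd encodes AUF1, which binds AU-rich elements and affects the decay of messenger RNA. It stood at 35.4 CPM in CR and 33.6 CPM in TR, against 42.0 and 42.2 CPM in AL (TR log2 fold change -0.33, adjusted p = 0.0160, per the authors' deposited table). Hnrnpr, an RNA-binding protein close to SYNCRIP, stood at 33.3 CPM in CR and 32.0 CPM in TR, against 39.3 and 39.6 CPM in AL (TR log2 fold change -0.31, adjusted p = 0.0322, per the authors' deposited table). In CR the log2 fold changes of these 5 genes after Hnrnpa1 were -0.14, -0.17, -0.12, -0.25 and -0.24 in the order given, per the authors' deposited table.

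The other 13 hnRNP genes lay between -0.19 and 0.19 in both diets, per the authors' deposited tables of liver. Of the 20 hnRNP genes, 17 lay below 0 in CR and 16 in TR, where 50.5% and 50.03% of all genes did. Over the 30 genes the median log2 fold change was -0.03 in CR and -0.04 in TR, beside -0.004 and -0.0005 over all genes, per the authors' deposited tables. All called changes were under 0.5 on the log2 scale. CR and TR share the AL mice, so the values of both diets are given side by side and no agreement between them is drawn. In the liver a lower level in CPM can come from fewer cells of a type or from less RNA per cell, and in these bulk samples, as in iWAT below, the 2 cannot be told apart. With the strand setting of the counting not given in the sources used here, reads of overlapping genes may be mixed, and several members overlap another annotated gene, among them Hnrnpa3, Hnrnpk, Hnrnpl, Hnrnpd and Hnrnpr, while Hnrnpc, Hnrnpa1 and Srsf7 overlap none in GENCODE M21.

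**Figure D1:**
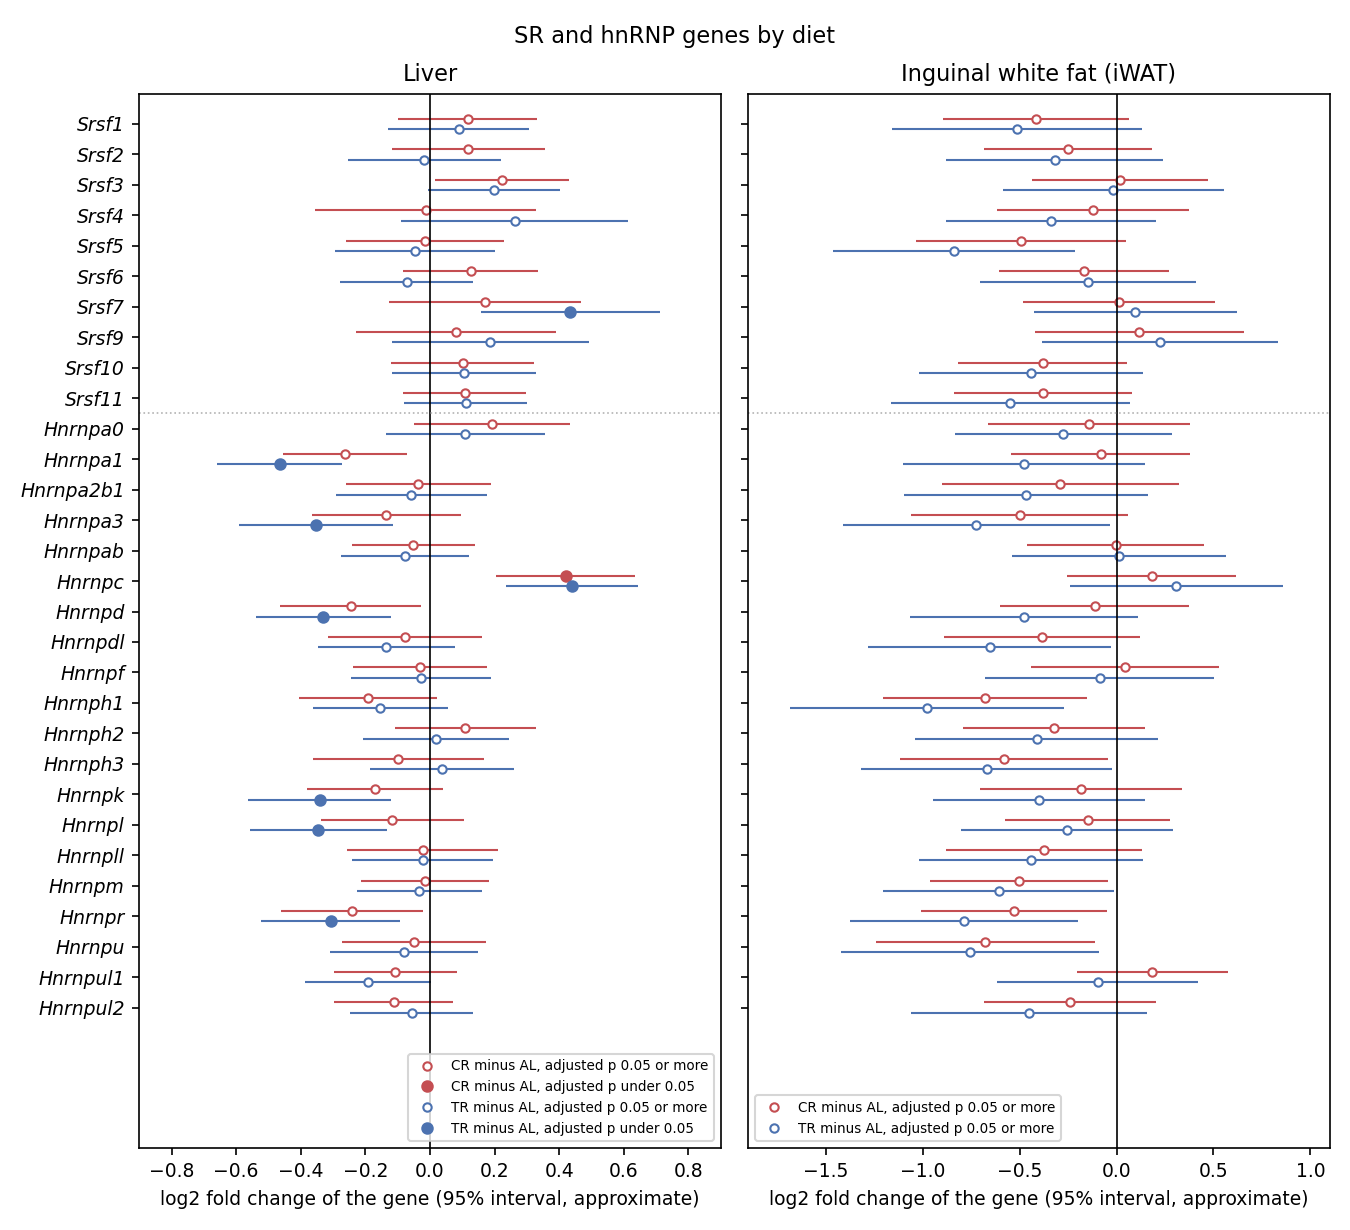
Log2 fold change (x axis) of each of the 30 SR and hnRNP genes in CR (red) and TR (blue) against AL, in liver on the left and iWAT on the right. Points are the authors' deposited values, bars are approximate 95% intervals, and filled points have an adjusted p under 0.05, which in liver holds for Hnrnpc in CR and for 8 genes in TR and in iWAT for none.

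The direct comparison of the diets in liver called no member. By the authors' edgeR likelihood-ratio test 0 of 30 genes differed between CR and TR, where 0.469% of all genes did, and 3 had an unadjusted p under 0.05. Hnrnpa1 had a log2 fold change of 0.20 (p = 0.0343, adjusted p = 0.434), Hnrnpl of 0.23 (p = 0.0288, adjusted p = 0.401) and Srsf4 of -0.28 (p = 0.0449) in CR relative to TR, per the authors' deposited table. A fall called in TR alone is therefore not shown to differ from CR.

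Among the liver transcripts, 1 coding form of Hnrnpa2b1 fell on both diets while its gene was not called. The gene encodes hnRNP A2/B1, which binds silencers, sorts RNA in the cytoplasm and reads methylated adenosine, and its level was 330 CPM in CR and 327 CPM in TR, against 338 and 340 CPM in AL. Of the members 1 of 151 transcripts was called in CR, against 2.66% of all transcripts, and 7 of 158 in TR, against 3.94% of all transcripts. Hnrnpa2b1-201 stood at 29.6 CPM in CR and 25.0 CPM in TR livers, against 51.3 and 51.4 CPM in AL livers. It fell by 0.79 on the log2 scale in CR (SE 0.15, adjusted p = 4.62e-05) and by 1.04 in TR (SE 0.17, adjusted p = 1.73e-07), per the authors' deposited tables. The log2 fold change of the gene was -0.04 in CR (SE 0.11, adjusted p = 0.894) and -0.06 in TR (SE 0.12, adjusted p = 0.786), per the authors' deposited tables.

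Hnrnpa2b1-201 is a form without the long cassette exon shown above. Hnrnpa2b1-210 has the same coding sequence of 903 bases and differs at the ends. The last 502 bases of Hnrnpa2b1-201 lie at chr6:51460932-51461433, and it starts 122 bases further upstream. Hnrnpa2b1-210 ends instead in a 495-base stretch at chr6:51462760-51463254, which Hnrnpa2b1-203 and Hnrnpa2b1-204 also carry. Hnrnpa2b1-201 thus differs from Hnrnpa2b1-204 at the ends as well as in the long exon. Hnrnpa2b1-210 stood at 39.8 CPM in CR and 33.7 CPM in TR, against 36.8 and 36.9 CPM in AL, with log2 fold changes of 0.11 and -0.13, per the authors' deposited tables. The fall was thus called for 1 of the transcripts of this protein form, and the deposited tables do not test the exon or the transcript end by itself. The form with the long exon and the most reads, Hnrnpa2b1-204, stood at 150 CPM in CR and 143 CPM in TR, against 150 CPM in AL from either table.

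The other forms of Hnrnpa2b1 had wide errors in liver. Hnrnpa2b1-203, the B1 form with both exons, stood at 15.2 CPM in CR and 25.5 CPM in TR, against 5.08 and 5.07 CPM in AL, but with an SE of 1.54 and 1.19 on the log2 scale neither change passed the threshold (adjusted p = 0.946 and 0.403, per the authors' deposited tables). Hnrnpa2b1-202, which has the long exon and 1023 coding bases like Hnrnpa2b1-204, stood at 21.1 CPM in CR and 27.9 CPM in TR, against 7.93 CPM in AL from either table (SE 1.17 and 0.99). The decay-targeted Hnrnpa2b1-207 stood at 17.0 CPM in CR and 10.7 CPM in TR, against 27.7 CPM in AL from either table (SE 0.88 and 0.74). Summed over forms, the 903-base coding sequence held 21.1% of the reads of the gene in CR and 17.9% in TR, against 25.9% in AL. The 1023-base sequence held 51.8% in CR and 52.1% in TR, against 46.4% in AL, and the 1059-base B1 sequence 4.62% in CR and 7.77% in TR, against 1.49% in AL.

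**Figure D2:**
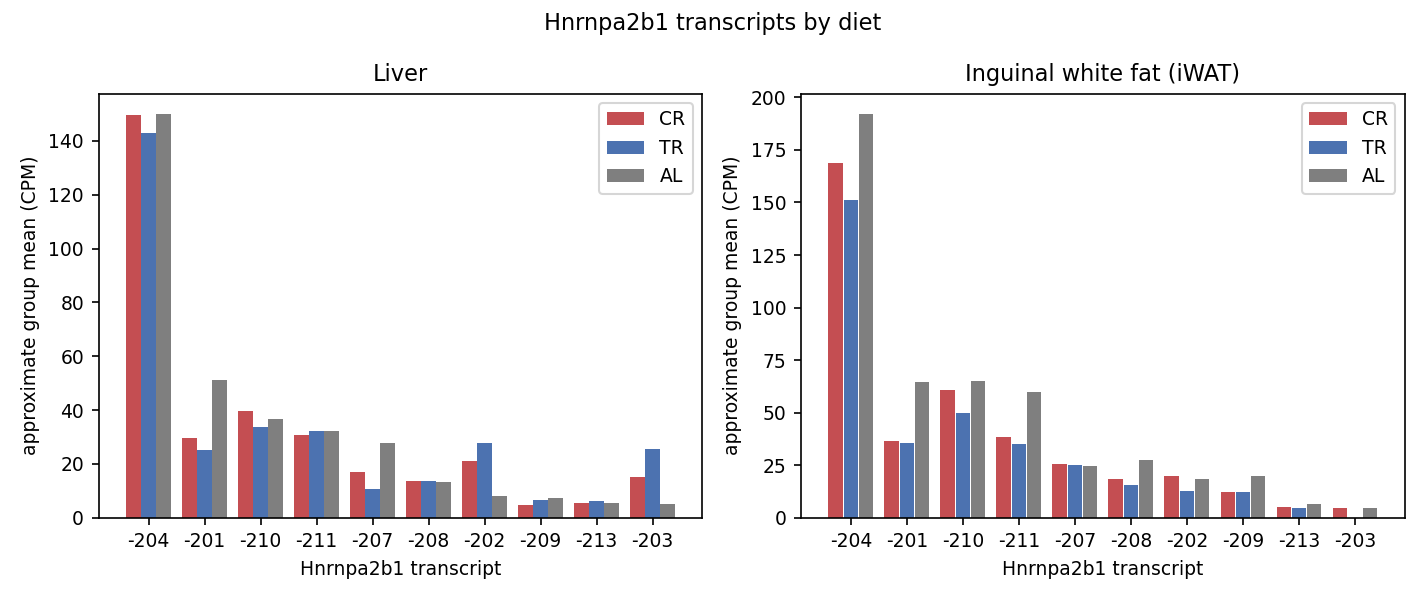
Approximate group mean (y axis, CPM, starting at 0) of the 10 Hnrnpa2b1 transcripts with the highest level in AL livers in CR, TR and AL mice, in liver on the left and iWAT on the right. The bars have no error because the deposited tables give no values per library. Hnrnpa2b1-201 stood at 29.6 CPM in CR and 25.0 CPM in TR livers, against 51.3 CPM in AL livers, while the liver means of Hnrnpa2b1-204 and Hnrnpa2b1-210 lay near their AL levels.

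Of the other 6 transcripts called in TR liver, 4 belong to genes that fell as well. Hnrnpa1-202, which held 91.3% of the reads of its gene, fell by 0.52 on the log2 scale (51.5 CPM in TR, against 74.0 CPM in AL, adjusted p = 0.0116, per the authors' deposited table). Hnrnpl-202, the main coding form of its gene, fell by 0.67 (18.9 CPM in TR, against 30.1 CPM in AL, adjusted p = 0.0124, per the authors' deposited table), while the change of the gene was -0.35. Hnrnpa3-202 fell by 0.53 (34.5 CPM in TR, against 49.7 CPM in AL, adjusted p = 0.0240, per the authors' deposited table). Compared with Hnrnpa3-203, the form with the most reads, it carries 66 more coding bases at the start and lacks coding exons of 81 and 102 bases. Hnrnpk-208 fell by 0.89 (9.73 CPM in TR, against 18.0 CPM in AL, adjusted p = 0.0472, per the authors' deposited table), and the main form Hnrnpk-201 changed by -0.31 without passing the threshold (85.6 CPM in TR, against 106 CPM in AL). In CR these 4 transcripts had log2 fold changes of -0.29, -0.20, -0.34 and -0.50, none past the threshold, per the authors' deposited table.

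The remaining pair in TR liver came from genes that were not called. Hnrnpdl encodes a paralogue of hnRNP D. Its transcript Hnrnpdl-202 fell by 1.07 on the log2 scale (SE 0.29, adjusted p = 0.00988), per the authors' deposited table, to 5.98 CPM in TR against 12.6 CPM in AL. It has another 3′ end than the main form Hnrnpdl-207 and 293 more annotated coding bases in the first exon. The annotated coding sequence of Hnrnpdl-207 has 967 bases, not a whole number of codons. Those 293 bases are thus a difference between annotated models, not a shown difference in protein. The change of the Hnrnpdl gene was -0.13 (adjusted p = 0.417), per the authors' deposited table, and Hnrnpdl-207 stood at 31.5 CPM in TR, against 32.5 CPM in AL. Hnrnpf encodes a protein that binds runs of guanines. Its transcript Hnrnpf-209, which codes for the same protein as the main form Hnrnpf-201 and starts in another first exon, rose, per the authors' deposited table (adjusted p = 0.000638). It stood at 5.82 CPM in TR and at a fitted 0.00498 CPM in AL, so the fitted log2 fold change of 10.19 (SE 2.29) depends on how values near 0 are treated and is no measure of size. Hnrnpf-209 was not listed in the liver table of CR, and the gene stood at 249 CPM in TR, against 254 CPM in AL. In the liver no member transcript was called between CR and TR by the authors' edgeR likelihood-ratio test, of 153 measured, where 0.323% of all transcripts were. An unadjusted p under 0.05 was found for 4 of the 153, beside 4.45% of all transcripts.

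Exon inclusion was estimated from the transcripts that join the same neighbouring exons, weighted by length, and it is a description without error or test. The long Hnrnpa2b1 exon was included in 72.2% of such liver transcripts in CR and 75.1% in TR, against 65.7% in AL, from 4 transcripts with and 3 without it. In iWAT its inclusion was 65.5% in CR and 64.7% in TR, against 60.5% and 60.6% in AL. The B1 exon was included in 11.0% in CR and 12.6% in TR, against 10.9% in AL liver, and in 8.83% in CR and 8.25% in TR, against 7.18% and 7.22% in AL iWAT. The Hnrnpk exon was included in 92.1% in CR and 89.8% in TR, against 89.7% and 89.8% in AL liver, and in 88.6% in CR and 90.1% in TR, against 87.9% in AL iWAT. The long Hnrnpa2b1 exon thus differed most in points, and the other 2 by less than 4 points in either tissue.

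The most abundant transcript of a gene mostly lay close to it. This is largely given in advance, because a gene's level is close to the sum of its transcripts. Many of the others did not share its direction, but over all measured transcripts the median difference lay below the median SE, as given below. A gene had a median of 4 to 5 transcripts per table and at most 15, and the most abundant one held over 50% of the reads in 18 to 20 of the 30 genes. For the most abundant transcript of each gene, the median absolute difference between the transcript's and the gene's log2 fold change was 0.07 in CR and 0.08 in TR liver, and 0.10 in CR and 0.06 in TR iWAT. Over all measured transcripts of the 30 genes it was 0.17 and 0.21 in liver and 0.22 and 0.24 in iWAT, below their median SE of 0.31 and 0.34 in liver and 0.49 and 0.55 in iWAT. The sign was opposite to that of the gene for 48 of 151 transcripts in CR and 60 of 158 in TR liver, for 35 of 171 in CR and 22 of 172 in TR iWAT, and between CR and TR for 73 of 153 in liver and 50 of 164 in iWAT. Among the most abundant transcripts it was opposite for 4 and 3 of 30 in CR and TR liver and for 1 of 30 in each diet in iWAT. A difference above 1 was found for 7 transcripts in CR and 12 in TR liver, for 8 in CR and 8 in TR iWAT, and between CR and TR for 7 in liver and 9 in iWAT. Called while the gene was not were 1 transcript in CR liver, against 0.405% of all transcripts, and 3 in TR liver, against 0.5%. In iWAT it was 1 in CR, against 0.474% of all transcripts, and 2 in TR, against 0.533%. Between CR and TR it was 0 in liver, against 0.25%, and 1 in iWAT, against 0.191%. Counts this small say little beyond the transcripts named, and a transcript called beside a gene that was not is no test of the difference between them. All transcripts called in any comparison are annotated as protein coding.

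**Figure D3:**
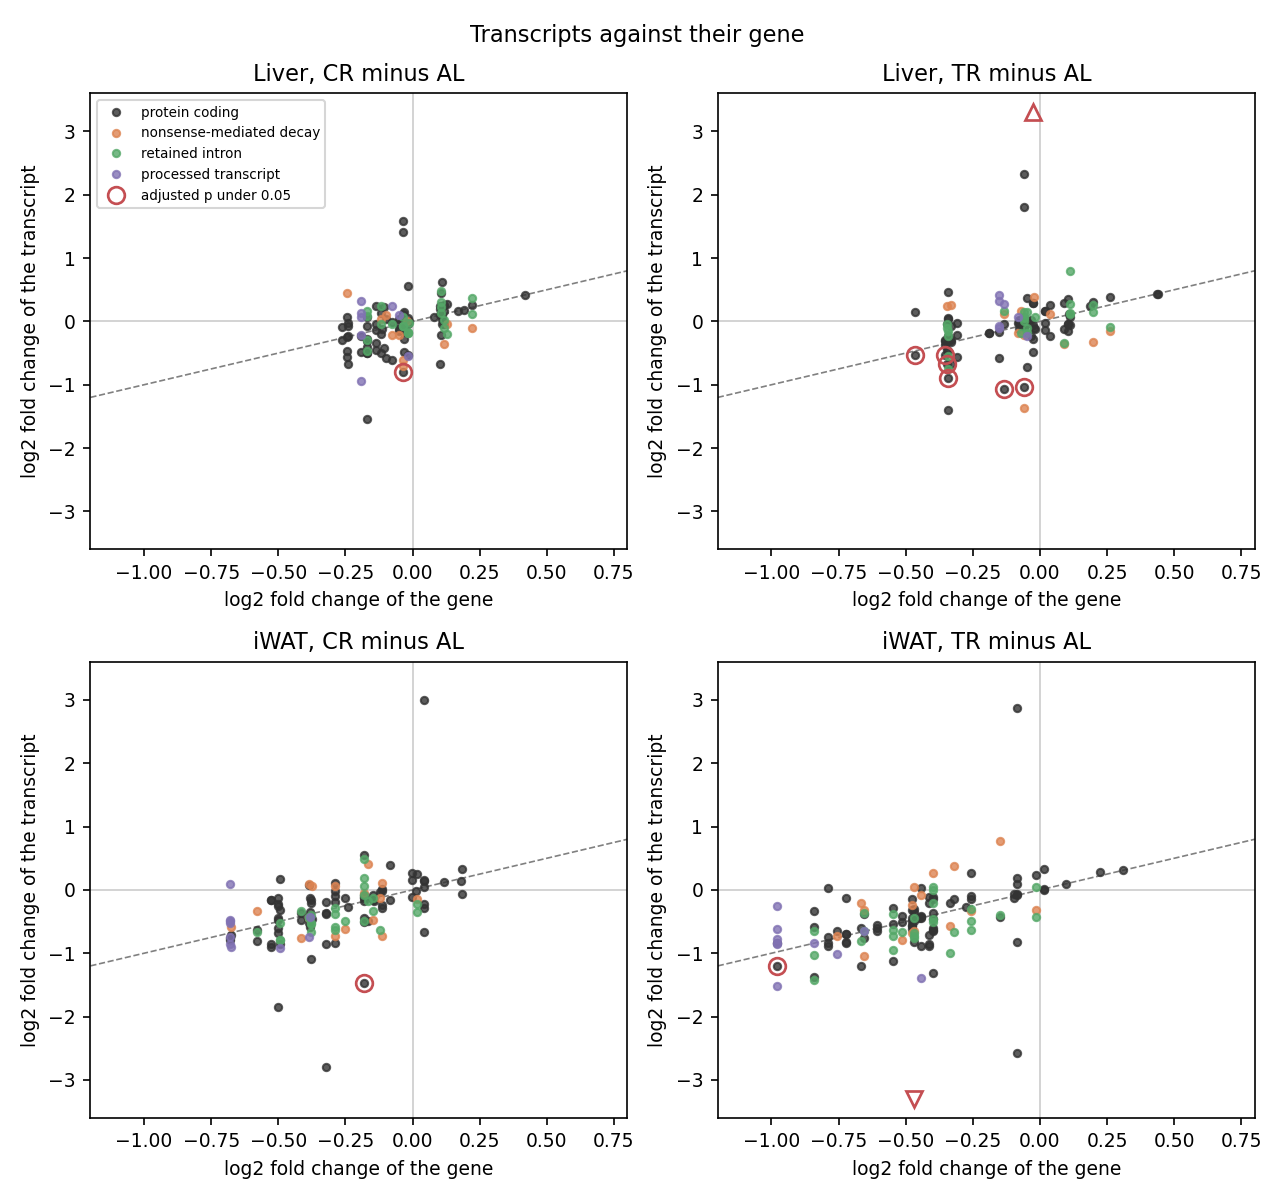
Log2 fold change of each transcript (y axis) against that of its gene (x axis), for SR and hnRNP transcripts of log2 mean CPM 1 or above, in 4 comparisons with AL. Colours give the annotated type, red rings mark an adjusted p under 0.05, the dashed line marks equal change, and triangles mark Hnrnpf-209 at 10.19 and Hnrnpa2b1-203 at -8.38, beyond the axis. The ringed Hnrnpa2b1-201 lies at -0.79 in CR and -1.04 in TR liver while its gene lies near 0.

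A large part of the reads of SR genes was assigned to transcripts that are not translated into the full protein. These are here those annotated as targets of nonsense-mediated decay, as retained introns or as processed transcripts. Total RNA was sequenced, and whether such reads came from finished transcripts was not tested. Of the 151 member transcripts in the CR table of liver, 82 are protein coding, 17 decay targets, 36 retained introns and 16 processed transcripts. None of the unproductive ones was called in any of the 6 comparisons by the authors' edgeR likelihood-ratio test. An unadjusted p under 0.05 was found for 1 of 69 in CR and 1 of 71 in TR liver, for 5 of 79 in CR and 7 of 80 in TR iWAT, and between CR and TR for 0 of 67 in liver and 1 of 74 in iWAT. Over all transcripts of these types, 1.22% in CR and 1.90% in TR liver and 1.18% in CR and 1.76% in TR iWAT were called, and between CR and TR 0.156% in liver and 0.0465% in iWAT. An unadjusted p under 0.05 was found for 6.03% and 8.05% of them in liver and for 6.20% and 8.32% in iWAT, in CR and TR. At these shares 0 calls among 67 to 80 transcripts is near the background. The median share of reads in unproductive transcripts over the 10 SR genes was 28.3% in CR and 29.6% in TR livers, against 32.7% in AL livers, and 29.0% in CR and 28.2% in TR iWAT, against 35.4% in AL iWAT. Over the 20 hnRNP genes it was 1.90% in CR and 2.27% in TR, against 1.19% in AL liver, and 9 of them had no such transcript measured. Of the 9 SR genes with any, 8 had a lower share in CR and 7 in TR livers, and 8 in each diet in iWAT. Of the 11 hnRNP genes with any, the share was lower in 2 in each diet in liver and in 3 in each diet in iWAT. These shares have no error of their own, and the direction was not tested.

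By share of reads, Srsf5, the gene of the SR protein SRp40, had the largest unproductive share of the 30 genes in AL and TR mice. In CR mice the read share of Srsf11 was larger in liver and that of Srsf6 in iWAT. This order does not hold per kilobase of transcript. There Hnrnpu had 81.3% in AL liver and 79.0% in AL iWAT, against 61.4% and 60.5% for Srsf5. The read share of Srsf5 was 61.0% in CR and 64.5% in TR livers, against 69.7% in AL livers. In iWAT it was 58.8% in CR and 62.4% in TR, against 70.8% and 70.9% in AL. Most of these reads were assigned to Srsf5-212, which keeps an intron of 1229 bases at chr12:80947866-80949094. It stood at 109 CPM in CR and TR livers, against 123 and 124 CPM in AL livers, and at 152 CPM in CR and 127 CPM in TR iWAT, against 263 and 257 CPM in AL iWAT. In iWAT its log2 fold change was -0.79 in CR (SE 0.31, adjusted p = 0.203) and -1.02 in TR (SE 0.35, adjusted p = 0.0814), per the authors' deposited tables. The coding Srsf5-201 stood at 57.1 CPM in CR and 49.8 CPM in TR livers, against 38.6 and 38.7 CPM in AL livers (CR log2 fold change 0.56, adjusted p = 0.255, per the authors' deposited table). Neither form passed the threshold, and the log2 fold change of the Srsf5 gene, which has 8 measured transcripts in liver, was -0.02 in CR and -0.05 in TR liver, per the authors' deposited tables.

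Some SR genes went against the others. The unproductive share of Srsf11 was 64.0% in CR and 61.8% in TR livers, against 58.2% in AL livers. That of Srsf2 was 49.2% in TR livers, against 45.7% in AL livers, but 43.7% in CR livers. That of Srsf6 was 59.4% in CR and 59.3% in TR iWAT, against 50.4% in AL iWAT, with the decay target Srsf6-201 at 45.4 CPM in CR and 56.4 CPM in TR, against 34.1 and 33.1 CPM in AL iWAT (adjusted p = 0.769 and 0.247, per the authors' deposited tables). Among the hnRNP genes, of which 9 of 11 had a higher share in each diet in liver, that of Hnrnpl was 39.1% in CR and 46.1% in TR livers, against 36.0% and 36.2% in AL livers, where its coding form Hnrnpl-202 fell in TR. The share of Hnrnph1 was 58.2% in CR and 58.9% in TR livers, against 55.4% in AL livers.

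**Figure D4:**
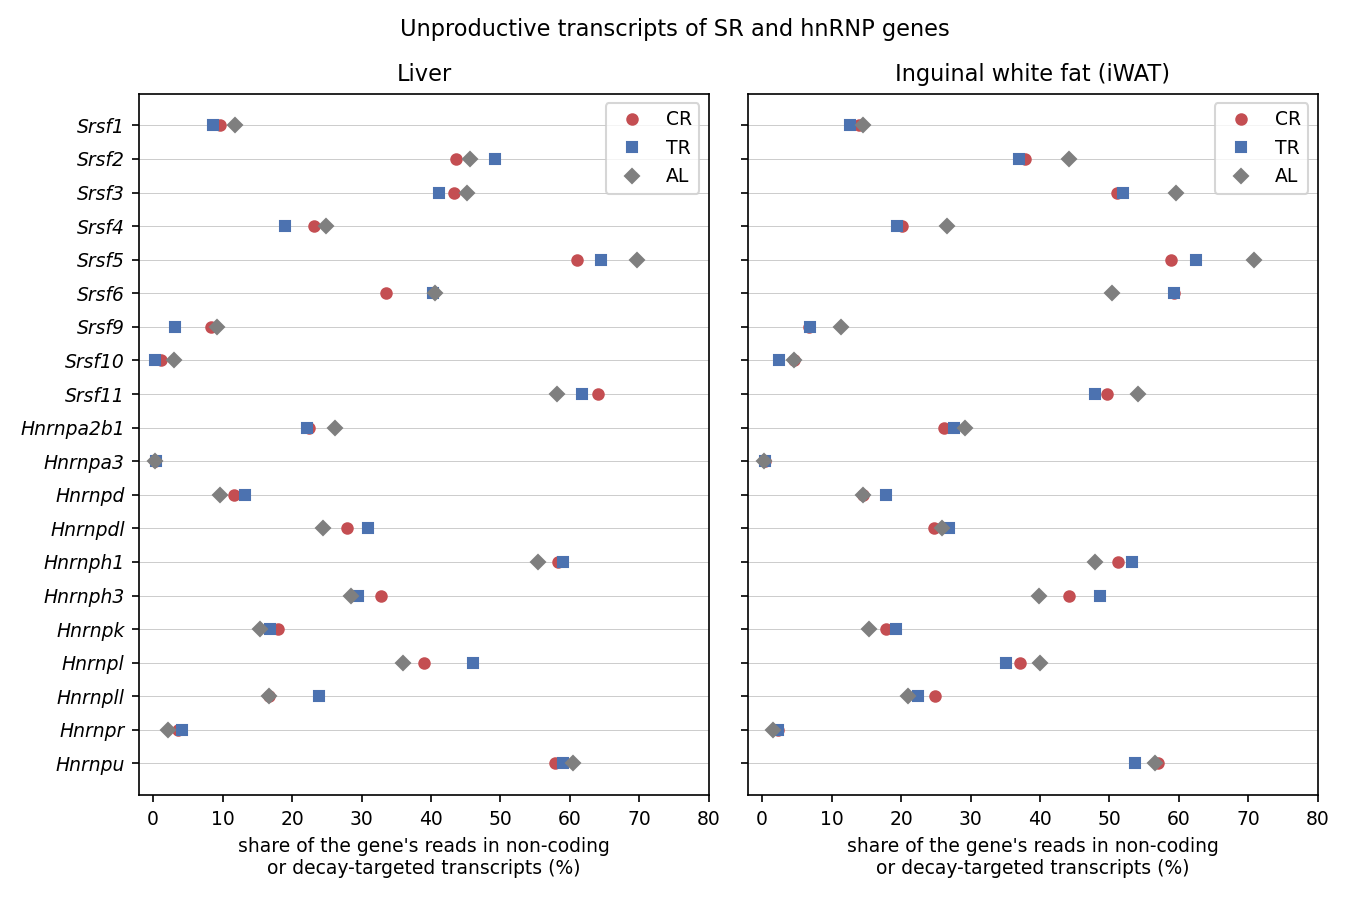
Share of the reads of each gene (x axis, %) in transcripts annotated as decay targets, retained introns or processed transcripts, for the 20 genes that have any, in CR (circles), TR (squares) and AL (diamonds), in liver on the left and iWAT on the right. The values are approximate and have no error. Srsf5 lies at 61.0% in CR and 64.5% in TR livers, against 69.7% in AL livers, while Srsf6 in iWAT and Srsf11 in liver lie higher than in AL.

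In iWAT most SR and hnRNP genes stood lower on both diets, but none was past the threshold. By the authors' edgeR likelihood-ratio test 0 of 30 genes were called in CR, where 7.3% of all genes were, and 0 of 30 in TR, where 10% were. An unadjusted p under 0.05 was found for 5 in CR and 8 in TR, all lower. Those are 16.7% and 26.7% of the members, beside 19.7% and 23.0% of all genes in either direction. Lower alone with such a p were 1684 of all 15295 genes in CR and 2036 of all 15356 in TR. Whether the members' shares exceed these was not tested. Below 0 lay 24 of 30 in CR and 26 of 30 in TR, beside 48.1% and 52.5% of all genes. Over the 30 genes the median log2 fold change was -0.25 in CR and -0.44 in TR, beside 0.02 and -0.04 over all genes, per the authors' deposited tables. The range was -0.68 to 0.18 in CR and -0.98 to 0.31 in TR. The 5 with an unadjusted p under 0.05 in CR were Hnrnph1, Hnrnph3, Hnrnpm, Hnrnpr and Hnrnpu, and in TR Hnrnpa3, Hnrnpdl and Srsf5 joined these. CR against TR called 0 of 30, where 0.918% of all genes were called, and 0 had an unadjusted p under 0.05, beside 3.62% of all genes.

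Hnrnph1, which binds runs of guanines (ENSMUSG00000007850, chromosome 11, bases 50376990 to 50386528), stood at 160 CPM in CR and 128 CPM in TR iWAT, against 256 and 253 CPM in AL iWAT. Its log2 fold change was -0.68 in CR (SE 0.27, adjusted p = 0.107) and -0.98 in TR (SE 0.36, adjusted p = 0.0612), per the authors' deposited tables. Srsf5 stood at 306 CPM in CR and 238 CPM in TR, against 431 and 426 CPM in AL, a log2 fold change of -0.49 (SE 0.28, adjusted p = 0.314) and -0.84 (SE 0.32, adjusted p = 0.0700), per the authors' deposited tables. Hnrnpu, also known as scaffold attachment factor A, stood at 240 CPM in CR and 224 CPM in TR, against 384 and 379 CPM in AL, a log2 fold change of -0.68 (SE 0.29, adjusted p = 0.143) and -0.76 (SE 0.34, adjusted p = 0.148), per the authors' deposited tables. Hnrnpr, which fell in TR liver, stood at 52.2 CPM in CR and 43.0 CPM in TR iWAT, against 75.3 and 74.3 CPM in AL iWAT, with -0.79 in TR (SE 0.30, adjusted p = 0.0717), per the authors' deposited table. In each of the 4 both diets' means lay below AL. Hnrnpc, which rose in liver, stood at 148 CPM in CR and 159 CPM in TR iWAT, against 130 and 129 CPM in AL iWAT, and was not called (adjusted p = 0.695 and 0.542, per the authors' deposited tables).

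Markers of other cell types moved with the diets in iWAT, and their part in these results was not tested. Of the 11 listed hepatocyte markers 10 were measured in iWAT. Their summed level was 200 CPM in CR and 6751 CPM in TR, against 1056 and 1048 CPM in AL, 9 of 10 fell in CR and 0 were called in TR, by the authors' edgeR likelihood-ratio test, with 1 at an unadjusted p under 0.05. The 11 skeletal muscle markers summed to 6340 CPM in CR and 384 CPM in TR, against 2764 and 2750 CPM in AL, and 4 fell in TR. The 12 lymph node markers summed to 2776 CPM in CR and 2340 CPM in TR, against 1853 and 1797 CPM in AL, and all 12 lay above 0 on both diets with none called and none at an unadjusted p under 0.05. The 6 macrophage markers summed to 239 CPM in CR and 209 CPM in TR, against 440 and 436 CPM in AL, and 2 of them, Cd163 and Mrc1, fell on both diets. All 8 adipocyte markers were measured in iWAT and summed to 24875 CPM in CR and 29859 CPM in TR, against 25114 and 24837 CPM in AL. In TR Fabp4 and Retn rose and Lep fell, and in CR none of the 8 was called by the authors' edgeR likelihood-ratio test, with 1 at an unadjusted p under 0.05. The 5 endothelial markers summed to 759 CPM in CR and 687 CPM in TR, against 900 and 891 CPM in AL, and Tek fell on both diets. The 6 markers of cycling cells summed to 46.3 CPM in CR and 42.5 CPM in TR, against 31.2 and 30.4 CPM in AL, with none called and 1 at an unadjusted p under 0.05 in CR. Of 6 markers of mammary epithelium 2 were measured in CR and 3 in TR iWAT, at 9.87 CPM or less in sum, and none was called. In CR relative to TR iWAT, 10 of 10 hepatocyte markers were lower (median -6.07) and 2 of 10 muscle markers higher (median of the 10 4.06). No marker of the other lists was called there, and 0.918% of all genes were. Against AL, 7.3% of all genes in CR and 10% in TR iWAT were called, and 11.2% and 18.9% in liver. In liver 10 of 11 hepatocyte markers were measured, at 146120 CPM in CR and 154865 CPM in TR, against 109196 and 109819 CPM in AL, and no skeletal muscle marker was listed. Ttr rose there on both diets and Alb in TR. Of the 4 adipocyte markers measured in liver Pparg and Cfd fell on both diets and Lipe rose in TR, and of the 5 endothelial markers Kdr fell and Vwf rose in TR. The epithelial marker Epcam rose in TR liver, and none of the lymph node, macrophage or cycling cell markers was called in liver by the authors' edgeR likelihood-ratio test, with 0 to 2 per list at an unadjusted p under 0.05 against AL.

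Among the iWAT transcripts, 1 coding form of Hnrnpk fell in CR and forms of Hnrnpa2b1 and Hnrnph1 fell in TR. In CR 1 of 171 transcripts was called, against 2.45% of all transcripts, in TR 2 of 172, against 3.55%, and between CR and TR 1 of 164, against 0.413%. Hnrnpk-216, a form without the Hnrnpk exon shown above, stood at 10.2 CPM in CR and 11.0 CPM in TR iWAT, against 28.3 and 27.5 CPM in AL iWAT. It fell by 1.48 on the log2 scale in CR (SE 0.40, adjusted p = 0.0141), and the value in TR was -1.32 (SE 0.64, adjusted p = 0.339), per the authors' deposited tables. The gene changed by -0.18 in CR and -0.40 in TR, per the authors' deposited tables, neither past the threshold. In liver Hnrnpk-216 had -1.54 in CR (SE 1.01) and -1.40 in TR (SE 0.99), at 2.70 CPM in CR and 2.99 CPM in TR, against 7.88 CPM in AL from either table, with neither called, per the authors' deposited tables. Compared with Hnrnpk-201, Hnrnpk-216 also carries 60 other bases, 31 of them coding, and lacks 38 noncoding bases. The deposited tables do not test the exon by itself.

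Hnrnph1-201, the coding form with the most reads of its gene, stood at 63.0 CPM in CR and 46.5 CPM in TR iWAT, against 110 and 107 CPM in AL iWAT. It fell by 1.20 on the log2 scale in TR (SE 0.36, adjusted p = 0.0333), and in CR the value was -0.80 (adjusted p = 0.109), per the authors' deposited tables. The gene itself lay at -0.98 in TR, so transcript and gene moved alike and stood on either side of the threshold. The B1 form Hnrnpa2b1-203 stood at 4.85 CPM in CR iWAT, against 4.91 CPM in AL, and at a fitted 0.0149 CPM in TR, against 4.95 CPM in AL. It fell in TR (adjusted p = 0.0128) and was higher in CR than in TR (adjusted p = 0.0476), per the authors' deposited tables. The fitted log2 fold changes of -8.38 and 8.33 against a group near 0 are no measure of size. Hnrnpa2b1-203 is 1 of 2 measured transcripts with the B1 exon. Estimated over both, inclusion of that exon was 8.25% in TR iWAT, against 7.22% in AL, and the exon by itself was not tested. In TR livers Hnrnpa2b1-203 stood above AL without passing the threshold, as given above.

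Hnrnpa2b1-201, the form that fell in liver, stood at 36.3 CPM in CR and 35.7 CPM in TR iWAT, against 64.7 and 63.1 CPM in AL iWAT. Its log2 fold change was -0.83 in CR (SE 0.30, adjusted p = 0.142) and -0.82 in TR (SE 0.33, adjusted p = 0.175), per the authors' deposited tables, which missed the threshold at this spread. The gene lay at -0.29 in CR and -0.47 in TR, per the authors' deposited tables. Hnrnpf-203, a form with the same coding sequence as Hnrnpf-201 and another first exon, stood at 8.72 CPM in CR and 7.42 CPM in TR, against 1.09 and 1.02 CPM in AL iWAT (SE 1.25 and 1.60, adjusted p = 0.262 and 0.457, per the authors' deposited tables). Hnrnpf-209 stood at 5.90 CPM in CR and 1.53 CPM in TR, against 9.33 and 9.15 CPM in AL iWAT, and was not called. Hnrnph2-205 stood at 0.517 CPM in CR and 3.23 CPM in TR, against 3.61 and 3.504 CPM in AL iWAT, and Hnrnpm-204 at 0.998 CPM in CR and 2.18 CPM in TR, against 3.61 and 3.32 CPM in AL iWAT, neither called.

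By type, the retained introns of SR genes stood lower in iWAT, as did those of hnRNP genes and the processed transcripts of both. In CR 15 of 15 lay below 0, with a median log2 fold change of -0.52, beside -0.04 over all retained introns, of which 53.2% lay below 0. In TR it was 14 of 15, with a median of -0.67, beside -0.16 over all retained introns, of which 59.5% lay below 0. Of the 25 retained introns of hnRNP genes, 18 lay below 0 in CR (median -0.38) and 21 in TR (median -0.46). Of the 19 processed transcripts of both families, 18 lay below 0 in CR (median -0.52) and 19 in TR (median -0.83), beside 53.0% and 52.2% of all processed transcripts. The coding transcripts of SR genes had medians of -0.18 in CR and -0.41 in TR. Of the retained introns of SR genes, 2 in CR and 3 in TR had an unadjusted p under 0.05 and were lower, and none was called by the authors' edgeR likelihood-ratio test.

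Whether the diets acted otherwise in iWAT than in liver was tested with an approximate test on the difference of the log2 fold changes. It called 0 of the 30 genes in CR, where 6.73% of all genes were called, and 0 of 30 in TR, where 7.81% were. The lowest adjusted p among the members was 0.246 in CR and 0.149 in TR, and 2 genes in CR and 4 in TR had an unadjusted p under 0.05. The median difference, iWAT minus liver, over the 30 genes was -0.29 in CR and -0.39 in TR, with a median SE of 0.27 and 0.32 per gene. Calls in liver without calls in iWAT are thus no shown difference between the tissues.

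Other parts of the splicing machinery had few called genes in iWAT. In liver the other splicing regulators and the core spliceosome had calls in both directions, and the remaining lists had none. Over all genes 7.3% in CR and 10% in TR were called in iWAT, and 11.2% and 18.9% in liver. Of 22 measured SR-like proteins, SR kinases and importers, 0 were called in liver by the authors' edgeR likelihood-ratio test, with 1 at an unadjusted p under 0.05 in CR and 0 in TR. In iWAT 0 of 23 were called in CR, with 6 at an unadjusted p under 0.05, and 1 in TR, Pnn, which encodes the splicing protein pinin, at 41.4 CPM in TR against 82.1 CPM in AL. Of 35 other splicing regulators 1 rose and 4 fell in CR liver, and 1 rose and 6 fell in TR liver, 14.3% and 20% of the list beside the 11.2% and 18.9% of all genes given above. Sfpq, a paraspeckle protein, rose in both diets, by 0.56 in CR and by 0.57 in TR on the log2 scale, per the authors' deposited tables. Rbm3, a cold-induced RNA-binding protein, had -0.38 in CR and -0.37 in TR, Tardbp, the gene of TDP-43, had -0.34 in CR and -0.32 in TR, and Ptbp2, a paralogue of the polypyrimidine tract binder, had -0.44 in CR and -0.43 in TR, all past the threshold, per the authors' deposited tables. In iWAT 0 of 35 were called in CR, with 4 at an unadjusted p under 0.05, and 2 of 36 in TR, Celf2 at -0.87 and Pcbp1 at 0.84, per the authors' deposited table.

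Of 41 core spliceosome genes, 1 rose and 1 fell in CR liver, and 4 rose and 3 fell in TR liver. Those are 4.88% and 17.1% of the list, beside 11.2% and 18.9% of all genes. The Sm-ring gene Snrpd2 rose, by 0.48 in CR liver and 0.36 in TR liver, and Prpf19, a ubiquitin ligase of the spliceosome, had -0.29 in CR and -0.33 in TR and fell on both diets, per the authors' deposited tables. In TR liver Snrnp200, the helicase that unwinds paired small nuclear RNAs, had -0.35 and fell, and Snrnp70, a protein of the particle that reads 5′ splice sites, had 0.34 and rose, per the authors' deposited table. In iWAT 0 of 41 were called on either diet, with 1 in CR and 4 in TR at an unadjusted p under 0.05, and their median log2 fold change was 0.22 in CR and 0.19 in TR, beside -0.25 and -0.44 for the SR and hnRNP genes. None of 15 factors of nonsense-mediated decay was called in any comparison by the authors' edgeR likelihood-ratio test, and 0 to 2 per comparison had an unadjusted p under 0.05.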

How the data were processed

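Bulk RNA sequencing of liver and iWAT covered 36 libraries of 20 mice, of which 16 gave both tissues and 4 gave 1, per the labels. Animal number 24 occurs with CR and with TR labels, and these were taken as different mice. RNA was extracted with Trizol and made into libraries with an Illumina TruSeq kit, per the labels' protocols. Per the submitters' processing notes, the tools were bcl2fastq 2.20, STAR 2.5.3a and RSEM, with the build GRCm38.p5. The edgeR version, filter and normalization and the annotation used for counting were not given in the sources used here. RSEM divides reads that several transcripts share by a model, so transcript levels within a gene depend on each other.

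The authors' edgeR comparisons, in 6 gene tables and 6 transcript tables, were used as deposited. Per the file headers, the authors gave the fold change and the mean CPM as log2 values. The likelihood-ratio statistic is a score from the authors' models. The authors' p-value is given unadjusted and adjusted, the second over all features of a table. Models of counts had been planned for the case that counts were given, and the deposited adjusted p under 0.05 was used instead. Tables were taken as normalized separately, so tests stay within a table, apart from the approximate test between tissues. The mice are separate animals, and the p-values measure the spread between them.

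Each deposited p lay within 4.999e-06 of the upper tail of a chi-square distribution at the statistic, and adjustment over the table lay within 0.00626 of the deposited adjusted p. As an approximate standard error, the absolute log2 fold change was divided by the root of the statistic, and 95% intervals use it. Group means follow from the mean CPM and the fold change. They cover no counting error, and depth is unknown. The transcripts of a gene summed to between 93.8% and 101.9% of its CPM. For the test between tissues, the difference of the fold changes was divided by its standard error, taking the tissues as uncorrelated, with Benjamini-Hochberg adjustment over all genes. That step was tested on simulated data. Transcript types, exons, positions and sequences came from GENCODE M21 on GRCm38, matched by identifier or transcript name. Python 3.11.15, numpy 2.4.6, pandas 2.3.3, scipy 1.17.1 and matplotlib 3.10.9 were used.

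The members, the 4 lists of other splicing genes and the 8 marker lists were chosen with earlier results of these data known. Values are given for every gene called in a table, for the 3 genes per tissue with the largest changes over its 3 comparisons among genes called in no table of either tissue, for every called transcript and for the 6 largest differences between transcript and gene per tissue, at a log2 mean CPM of at least 1. Up to 4 genes with the smallest adjusted p were taken from each list. Hnrnpa2b1, Hnrnpdl, Hnrnpf, Hnrnpc and Hnrnpr in iWAT, Srsf5 in liver and the further transcripts, exons and unproductive shares described were chosen after their values were seen.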

Additional observations from a re-analysis of the deposited data

How the results depend on the processing

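No values per library were used here, so leaving out each replicate in turn was not run. No paired analysis was possible because the deposited tables hold comparisons of groups and no column per library. Over the alternatives run, 65 values stayed within the limits set and 11 moved, all of them counts of calls. With an adjusted p under 0.1, 2 genes in CR liver (1 before) and 3 genes in TR iWAT (0 before) were called. With an adjusted p under 0.01, 2 genes in TR liver (8 before) and 3 transcripts in TR liver (7 before) were called, and 0 transcripts in CR iWAT, in TR iWAT and in iWAT between CR and TR (1, 2 and 1 before). With an absolute log2 fold change of at least 0.5 required as well, 0 genes were called in CR and in TR liver. In the setting for log2 mean CPM 1 or above, 0 transcripts were called in iWAT between CR and TR (1 before). The transcript called there before, Hnrnpa2b1-203, itself lies above that level. The count of transcripts called without their gene stayed at 1 at that level, so the 0 does not place Hnrnpa2b1-203 below it. Requiring an unadjusted p of at least 0.05 for the gene left 1 transcript called without its gene in TR iWAT, against 2. The calls of 0 genes between tissues held with a correlation of 0.3 and of -0.3 between the tissues of a mouse. The smaller number of calls in iWAT stands beside a median standard error of 0.318 to 0.366, against 0.142 to 0.153 in liver, and the cause of the moved counts, beyond each threshold's own construction, was not tested. Transcripts near 0 in a group, Hnrnpf-209 and Hnrnpa2b1-203, rest on few reads.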

Other observations

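Hnrnpd and Hnrnpr, which fell in TR liver as genes, had no called transcript. The most abundant form of Hnrnpd, Hnrnpd-203, stood at 10.4 CPM in CR and 9.69 CPM in TR livers, against 15.3 and 15.4 CPM in AL livers (adjusted p = 0.231 and 0.0823, per the authors' deposited tables). Hnrnpd-211 stood at 9.52 CPM in CR and 8.57 CPM in TR livers, against 9.03 and 9.04 CPM in AL livers. Hnrnpr-202 stood at 10.2 CPM in CR and 11.0 CPM in TR livers, against 16.1 and 16.2 CPM in AL livers, whereas Hnrnpr-204 stood at 11.8 CPM in CR and 10.4 CPM in TR livers, against 11.97 and 11.99 CPM in AL livers. Hnrnpc and Srsf7, which rose as genes, are carried by 1 transcript each. The log2 fold change of Hnrnpc-201 was 0.41 in CR and 0.44 in TR, and that of Srsf7-201 0.16 in CR and 0.44 in TR, per the authors' deposited tables of liver. None of these passed the threshold over all transcripts (adjusted p = 0.139 and 0.110 for Hnrnpc-201, and 0.979 and 0.143 for Srsf7-201, per the authors' deposited tables).

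Hnrnpu held 57.8% of its reads in unproductive forms in CR and 59.1% in TR livers, against 60.5% in AL livers. Its decay target Hnrnpu-206 stood at 95.8 CPM in CR and 98.1 CPM in TR livers, against 111 CPM in AL livers from either table, beside the coding Hnrnpu-201 at 104 CPM in CR and 99.3 CPM in TR, against 101 CPM in AL from either table. None of these changes was called.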
